A study of Homo sapiens with 19 samples.

Results

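The genes described here are the NF-kappaB subunits and their feedback inhibitors, 10 genes picked by symbol out of the 30710 genes that the 3 deposited tables list between them. The 5 subunits are NFKB1, NFKB2, REL, RELA and RELB, and the 5 grouped as inhibitors are NFKBIA, NFKBIE, NFKBIZ, TNFAIP3 and BIRC3. The word inhibitor is the name of that group, and what each gene does to the pathway in these cells was not measured. All 10 are listed in every table, and all 10 passed the filter on low values in each of them.

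The data are 19 RNA-seq libraries of 1 human tumor line, MDA-MB-231, a mesenchymal, triple-negative breast cancer line, so every group is the same line. A first table holds adherent cells grown in DMEM with serum, spheres kept for 16 h and spheres kept for 5 d (n = 2 libraries each), the spheres floating in non-adherent plates in DMEM/F12 that held EGF, FGF and B27, with no serum listed. The next table holds spheres given siSCIRT 1, siSCIRT 2 or the control siRNA siNC (n = 3 each), and the last holds spheres given siEZH2 or its own siNC (n = 2 each). All 13 siRNA libraries came from cells transfected as they were seeded and then held for 48 h in the sphere medium. Adherent cells and spheres differ in serum, medium, growth factors and attachment together, and effects of these cannot be told apart. The labels do not say that replicates were separate cultures, and p-values then reflect only how much the libraries scatter, which may be technical.

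NF-kappaB is a family of dimeric transcription factors that wait in the cytoplasm, bound by inhibitor proteins of the ankyrin class. Signals from TNF, interleukin and Toll-like receptors activate a kinase complex that marks the inhibitor for destruction, and the freed dimers enter the nucleus and switch on inflammatory and survival genes. Among those genes are the inhibitors themselves, which makes the pathway damp its own signal, and lines such as MDA-MB-231 are known for a high standing activity of it.

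RefSeq entries on GRCh38.p14 were found for 8 of the 10 genes, with 13 promoters between them, and the 250 bases before each start were searched on both strands. The loose kappaB core (GGG, any 5 bases, then CC) lay in 12 of the 13, against 54.4% of 35116 promoters of all genes. The stricter NF-kappaB consensus of 10 letters, every match of which also holds the core, lay in 9 of the 13 and in 7 of the 8 genes, RELA being the exception, against 5.21% of all promoters. That stricter search was chosen after the values were known. NFKB2 had 3 matches of the consensus before its middle start, 2 before its last and 0 before its first. Its RNA passed the test used below in no comparison, and its windows are not shown. The windows below are 30 bases each and hold the consensus matches of the genes whose RNA differed most between cultures, with NFKB1 for comparison, read 5′ to 3′ along the gene, the consensus in capitals.
NFKBIA: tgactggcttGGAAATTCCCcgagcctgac
TNFAIP3: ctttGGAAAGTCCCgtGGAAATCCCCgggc
BIRC3, farther from the start: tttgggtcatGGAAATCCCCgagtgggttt
BIRC3, nearer to the start: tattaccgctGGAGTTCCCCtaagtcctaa
NFKBIZ, first start: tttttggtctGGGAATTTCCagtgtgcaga
NFKBIZ, next start: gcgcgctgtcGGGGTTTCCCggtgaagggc
REL: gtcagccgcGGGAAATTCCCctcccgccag
NFKB1: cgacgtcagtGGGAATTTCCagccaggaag

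The NFKBIA window is chr14:35404811-35404840 on the minus strand, and the others lie on plus strands. They are chr6:137867188-137867217 for TNFAIP3, chr11:102317275-102317304 and chr11:102317339-102317368 for BIRC3, chr3:101827757-101827786 and chr3:101849265-101849294 for NFKBIZ, chr2:60881518-60881547 for REL and chr4:102501300-102501329 for NFKB1. TNFAIP3 carries a pair of matches set side by side, and the capitals of REL are 2 overlapping matches. The first NFKBIZ window and that of NFKB1 hold the same 10 letters, GGGAATTTCC. A match describes these letters and not binding.

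The libraries matched their labels on the silenced genes. SCIRT, a long noncoding RNA listed as RP5-1120P11.1, had 121, 112 and 127 normalized counts with siSCIRT 1 and 159, 105 and 117 with siSCIRT 2, against 264, 287 and 256 with siNC. EZH2, the histone methyltransferase of Polycomb complex PRC2, had 275 and 278 normalized counts with siEZH2, against 518 and 529 with siNC. A normalized count is the number of reads on a gene after scaling for library size, on 1 scale within a table and not between tables. A library held 6104222 to 14781941 reads if from culture, 38635418 to 62218847 if from the siSCIRT table and 27989577 to 38955312 if from the siEZH2 table. VIM, CD44, ZEB1 and AXL, markers of mesenchymal breast cancer lines, stood at 615 normalized counts or more in every library. Of 4 genes known to be low or absent in the line, ESR1, CDH1 and, where listed, PGR did not exceed 21.1 in any library. EPCAM, the other one, was higher, at 23.2 to 93.8 in the culture table, 389.8 to 520.4 in the siSCIRT table and 227 to 291 in the siEZH2 table.

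At 16 h the 4 largest differences from adherent cells among the 10 genes were those of inhibitors. There, 4 of the 5 inhibitors (BIRC3, TNFAIP3, NFKBIZ and NFKBIA) were higher than in adherent cells by 3.03-fold to 13.1-fold, whereas no subunit except REL differed by as much as 1.5-fold. By limma, 6 of the 10 genes were called higher at 16 h and 1 lower (Benjamini-Hochberg adjusted p under 0.05), where 27.4% of all 13789 genes tested were called higher and 26.5% lower. At 5 d, 4 were called higher and 4 lower, where 26.3% of all genes were higher and 28.9% lower. The median log2 fold change of the 5 inhibitors was 1.72 at 16 h and 0.91 at 5 d, that of the 5 subunits was -0.03 and -0.15, and that of all genes was -0.01 and -0.02. The groups did not overlap for 9 of the 10 genes at 16 h and for all 10 at 5 d, but neither did they for 77% and 77.7% of all genes. Both comparisons share the adherent libraries. These are bulk values, in which fewer cells expressing a gene and less RNA per cell cannot be told apart.

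**Figure D1:**
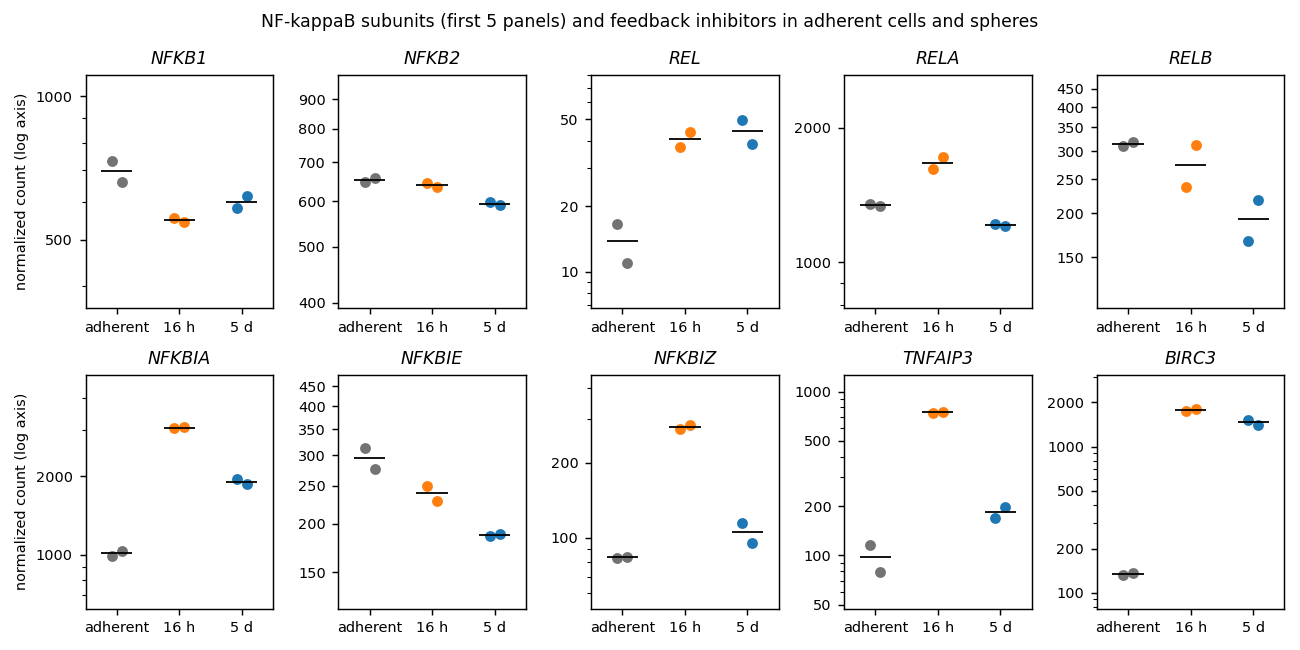
Normalized count of each of the 10 genes (log axis) in adherent cells, 16 h spheres and 5 d spheres; points are libraries (n = 2 per group) and bars are group means. BIRC3 stands at 1744 and 1809 at 16 h and 1522 and 1413 at 5 d, far above the 133 and 136 of adherent cells, while TNFAIP3 and NFKBIZ peak at 16 h.

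BIRC3, an inhibitor-of-apoptosis ubiquitin ligase that acts at TNF receptors, showed the largest difference of the 10. It had 133 and 136 normalized counts in adherent cells, 1744 and 1809 at 16 h and 1522 and 1413 at 5 d, and no sphere library came near an adherent one. The log2 fold change over adherent cells was 3.71 ± 0.08 at 16 h (SE, limma adjusted p = 4.85e-32) and 3.44 ± 0.08 at 5 d (adjusted p = 1.1e-30), a 13.1-fold and a 10.8-fold difference. TNFAIP3, a ubiquitin-editing enzyme that switches off signaling to the kinase complex, had 115 and 79.1 normalized counts in adherent cells, 741 and 754 at 16 h and 169.8 and 197 at 5 d. It was high at 16 h and had come down by 5 d to a level still above both adherent libraries. The log2 fold change was 2.95 ± 0.15 at 16 h (adjusted p = 3.69e-19) and 0.93 ± 0.15 at 5 d (adjusted p = 1.6e-06).

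NFKBIA, the classic cytoplasmic inhibitor (IkappaB alpha), had 987 and 1037 normalized counts in adherent cells, 3056 and 3078 at 16 h and 1946 and 1866 at 5 d. The 3 groups did not overlap, and the 5 d values lay in between. Its log2 fold change over adherent cells was 1.60 ± 0.05 at 16 h (adjusted p = 2.02e-26) and 0.91 ± 0.05 at 5 d (adjusted p = 1.59e-18). NFKBIZ, a nuclear relative of the inhibitors that also helps to activate some target genes, had 83.0 and 84.0 normalized counts in adherent cells, 272 and 282 at 16 h and 115 and 95.5 at 5 d. Only the 16 h libraries stood clearly apart, by 1.72 ± 0.18 on the log2 scale (adjusted p = 1.19e-10). The 5 d libraries were both above the adherent ones, but the difference of 0.32 ± 0.18 did not pass the test (adjusted p = 0.119).

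NFKBIE, the epsilon form of the cytoplasmic inhibitor, went the other way. It had 313 and 276 normalized counts in adherent cells, 250.5 and 228 at 16 h and 186 and 188 at 5 d, and the groups did not overlap. Its log2 fold change over adherent cells was -0.65 ± 0.13 at 5 d (limma adjusted p = 7.28e-05). At 16 h it was -0.30 ± 0.13, short of the threshold (adjusted p = 0.0572), and it passed with edgeR (adjusted p = 0.0483), with only the compared groups in the fit (0.0305) and without either 5 d library (0.037 without replicate 1 and 0.0372 without replicate 2).

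Among the subunits, REL, the c-Rel protein best known from lymphoid cells, was the least abundant and the only one that rose at both times. It had 16.6 and 11.0 normalized counts in adherent cells, 37.3 and 44.0 at 16 h and 49.7 and 38.5 at 5 d. All 4 sphere libraries lay above both adherent ones, by 1.52 ± 0.36 on the log2 scale at 16 h (limma adjusted p = 0.000496) and 1.63 ± 0.36 at 5 d (adjusted p = 0.000216). RELA, the main transactivating subunit, had 1347 and 1339 normalized counts in adherent cells, 1620.1 and 1723 at 16 h and 1216 and 1203 at 5 d. It was thus highest at 16 h and lowest at 5 d, 0.31 ± 0.05 above adherent cells on the log2 scale (adjusted p = 6.27e-06) and then -0.15 ± 0.05 from them (adjusted p = 0.0185). The 5 d call was lost without adherent replicate 1 (adjusted p = 0.104), adherent replicate 2 (0.0831) or 5 d replicate 2 (0.0543) and with DESeq2 (0.099).

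NFKB1 encodes a precursor whose processed form pairs with RELA. It had 730.5 and 662 normalized counts in adherent cells, 556 and 546 at 16 h and 584 and 619 at 5 d. Every sphere library was below both adherent ones, and the log2 fold change was -0.33 ± 0.08 at 16 h (limma adjusted p = 0.000733) and -0.21 ± 0.08 at 5 d (adjusted p = 0.0302). Without adherent replicate 1 (adjusted p = 0.339), without 5 d replicate 1 (0.143) or with DESeq2 (0.112) the 5 d call was lost. RELB, the partner of NFKB2 in the noncanonical branch of the pathway, had 310.1 and 319 normalized counts in adherent cells, 238 and 311 at 16 h and 167 and 219 at 5 d. The 16 h libraries differed widely from each other and did not separate by the test (-0.21, adjusted p = 0.219), whereas both 5 d libraries were lower than the rest (-0.72 ± 0.14 against adherent cells, adjusted p = 4.73e-05). NFKB2, the precursor of the noncanonical branch, had 648 and 659 normalized counts in adherent cells, 644 and 635 at 16 h and 598 and 590.0 at 5 d. It did not pass the test at 16 h (-0.03, adjusted p = 0.766) or at 5 d (-0.14, adjusted p = 0.142).

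Other measures moved with the culture as well. Mitochondrial genes took 6.83% to 6.89% of reads in adherent cells, 8.55% to 8.56% at 16 h and 9.65% to 9.74% at 5 d. Genes annotated as rRNA, the mitochondrial ones included, took 0.720% to 0.722%, 2.03% to 2.04% and 2.22% to 2.24% in the same order. The summed level of the 4 fibroblast markers listed, of 5, was 67.2 to 71.2 normalized counts in adherent cells, 1083 to 1104 at 16 h and 95.5 to 125 at 5 d. Nearly all of the 16 h sum was DCN, at 999 to 1014, while COL1A2 did not exceed 2.44 there. COL1A1 was higher in spheres, at 10.6 to 14.6, 52.5 to 67.15 and 43.5 to 46.2 in the same order. PDGFRB was lower at 16 h, at 54.3 to 56.0, 22.4 to 29.3 and 43.1 to 73.5. The summed level of the 4 blood cell markers listed, of 6, was 31.1 to 41.5, 46.9 to 67.2 and 72.5 to 94.0 in the same order of groups. PTPRC, which defines blood cells, had 12.1 to 12.2 in adherent cells, 0 at 16 h and 2.07 to 9.24 at 5 d. CD14 was higher in spheres (11.6 to 16.6, 23.4 to 45.2 and 18.5 to 22.8 in that order). So was CSF1R (6.70 to 12.1, 22.0 to 22.4 and 45.5 to 66.2). Of the 4 endothelial markers only VWF and KDR are listed, with sums of 180 to 186, 302 to 385 and 206 to 301. The part of these in the results for the 10 genes was not tested.

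Between the sphere times, every one of the 5 inhibitors was lower at 5 d than at 16 h. By limma, 7 of the 10 genes were called lower and 0 higher, where 25.5% of all genes tested were lower and 22.8% higher. The groups did not overlap for 9 of the 10, where 71% of all genes did not. The log2 fold change was -2.02 ± 0.15 for TNFAIP3 (adjusted p = 4.03e-14) and -1.39 ± 0.18 for NFKBIZ (adjusted p = 2.55e-08). It was -0.69 ± 0.05 for NFKBIA (adjusted p = 9.98e-15), -0.47 ± 0.05 for RELA (adjusted p = 4.79e-09) and -0.28 ± 0.08 for BIRC3 (adjusted p = 0.00278). BIRC3 therefore kept most of its 16 h level, with 1522 and 1413 normalized counts at 5 d against 1744 and 1809 at 16 h, while TNFAIP3 did not, with 169.8 and 197 at 5 d against 741 and 754 at 16 h. RELB (-0.51 ± 0.14, adjusted p = 0.00305) and NFKBIE (-0.35 ± 0.13, adjusted p = 0.0264) were lower as well. NFKB1 (0.13, adjusted p = 0.213), NFKB2 (-0.11, 0.28) and REL (0.11, 0.831) did not pass. The BIRC3 call was lost without 5 d replicate 2 (adjusted p = 0.0517), and the RELB call without 16 h replicate 2 (0.142) or 5 d replicate 1 (0.0852). The NFKBIE call was lost without 16 h replicate 1 (0.145), 5 d replicate 1 (0.0572) or 5 d replicate 2 (0.0505), with only the compared groups (0.0558) and with DESeq2 (0.119).

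**Figure D2:**
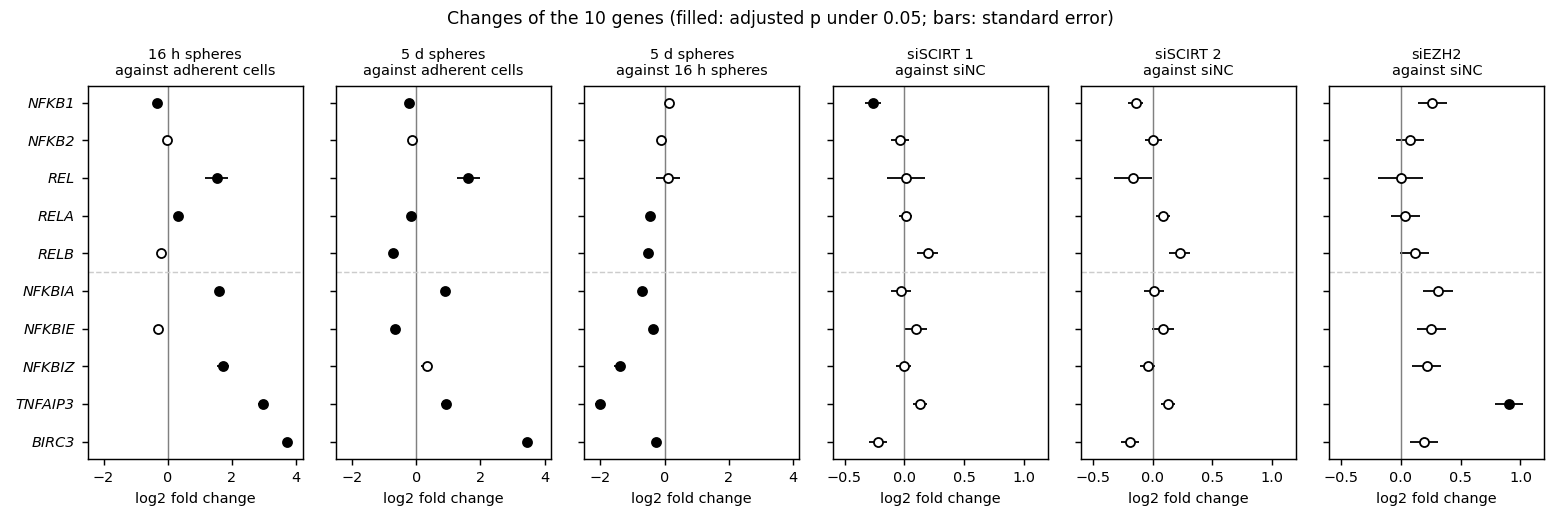
Log2 fold change of each gene (x axis) in 6 comparisons, subunits above the dashed line and inhibitors below; bars are standard errors and filled points have an adjusted p under 0.05. The 3 siRNA panels use a narrower scale, and in them only NFKB1 with siSCIRT 1 (-0.26) and TNFAIP3 with siEZH2 (0.91) are filled.

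Levels can be ranked between genes once divided by exon length (GENCODE exon unions on GRCh38, a build other than that of the reads). As normalized counts per kilobase, NFKBIA led in adherent cells (426 ± 14.8, SD, n = 2), followed by RELA (246 ± 0.976) and NFKB2 (146 ± 1.66). NFKBIE (114 ± 10.2), NFKB1 (111 ± 7.76) and RELB (104 ± 2.07) came next and did not differ beyond their spread. TNFAIP3 (19.3 ± 5.08), BIRC3 (17.9 ± 0.336) and NFKBIZ (14.1 ± 0.121) formed a lower tier, and REL (1.05 ± 0.303) was last. In 16 h spheres the level of NFKBIA was 1292 ± 6.52 per kilobase and that of RELA 306 ± 13.4, and BIRC3 (236 ± 6.11) and TNFAIP3 (148 ± 1.79) had passed NFKB2 (143 ± 1.37). In 5 d spheres BIRC3 (195 ± 10.3) was still next, behind NFKBIA (803 ± 24.0) and RELA (221 ± 1.70), but TNFAIP3 (36.3 ± 3.84) was again below all subunits except REL (3.35 ± 0.600).

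The siRNA spheres had another order. With siNC in the siSCIRT table, the level per kilobase was 6438 ± 572 for NFKBIA (SD, n = 3), 1819 ± 121 for NFKB2, 1298 ± 85.0 for BIRC3 and 1289 ± 51.2 for RELA, the last pair within their spread. TNFAIP3 (1051 ± 44.8) and NFKBIE (1018 ± 63.4) came next, within their spread, ahead of RELB (897 ± 109), NFKBIZ (883 ± 37.1) and NFKB1 (588 ± 14.4). With siNC in the siEZH2 table NFKBIA (3924 ± 244, SD, n = 2), NFKB2 (1037 ± 1.77) and RELA (974 ± 94.7) led. REL was last in both, at 33.3 ± 2.70 and 10.2 ± 2.86 per kilobase. These tables were normalized separately from the culture table, so only the order within each can be read.

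The rest of the pathway was described by 5 lists, given as counts of genes tested that were called by limma. The lists were chosen with earlier results of these data known, and no set test was run. Of 36 classic target genes, 25 were higher (69.4%, where 27.4% of all genes were) and 6 lower (16.7%, where 26.5% were) at 16 h than in adherent cells, with a median log2 fold change of 1.00 against -0.01 over all genes. Examples are SDC4, a cell surface proteoglycan, at 4282 and 4361 normalized counts in 16 h spheres against 961 and 1043 in adherent cells (2.11 ± 0.05, adjusted p = 4.87e-31), and the acute-phase gene SAA1 (7.49 ± 0.15, adjusted p = 1.76e-32), whose reads may be shared with its near-identical neighbor SAA2. CSF1, the macrophage growth factor, was lower, at 1311 and 1359 in 16 h spheres against 5856 and 5641 in adherent cells (-2.11 ± 0.04, adjusted p = 5.57e-34). At 5 d, 16 targets were higher (44.4%, where 26.3% of all genes were) and 12 lower (33.3%, where 28.9% were), at a median of 0.10, with SDC4 (1.18 ± 0.05, adjusted p = 1.31e-22) and SAA1 (3.62 ± 0.15, adjusted p = 4.83e-22) still higher and IER3, an early response gene, lower (-0.59 ± 0.02, adjusted p = 4.81e-22). Against 16 h, 24 of the 36 were lower at 5 d (66.7%, where 25.5% of all genes were) and 4 higher (median -0.76). SOD2, the mitochondrial superoxide dismutase, was lower (-1.85 ± 0.05, adjusted p = 4.02e-28), as was the adhesion molecule ICAM1 (-1.34 ± 0.05, adjusted p = 2.31e-23), while CSF1 rose (1.66 ± 0.04, adjusted p = 3.06e-30).

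Ahead of the subunits, 7 of 13 receptors were higher (53.8%) and 4 lower (30.8%) at 16 h, where 27.4% and 26.5% of all genes were, with a median of 0.20. TLR2, a Toll-like receptor for bacterial lipoproteins, had 1666 and 1714 normalized counts in 16 h spheres against 80.7 and 84.6 in adherent cells (4.34 ± 0.14, limma adjusted p = 6.47e-23). The TNF receptor TNFRSF1A was higher (0.85 ± 0.05, adjusted p = 2.37e-18), and TLR4, the endotoxin receptor, lower (-0.97 ± 0.07, adjusted p = 3.65e-14). At 5 d, 7 receptors were higher (53.8%, where 26.3% of all genes were) and 2 lower (15.4%, where 28.9% were), at a median of 0.34. TNFRSF1A held its difference (0.87 ± 0.05, adjusted p = 2.36e-18), TLR2 was nearer to adherent cells (1.56 ± 0.14, adjusted p = 2.35e-11) and TNFRSF12A, the TWEAK receptor, was lower (-0.97 ± 0.07, adjusted p = 3.24e-15). Against 16 h, TLR2 fell (-2.78 ± 0.14, adjusted p = 1.82e-17), and TNFRSF21 (0.49 ± 0.06, adjusted p = 5.53e-08) and TLR4 (0.43 ± 0.07, adjusted p = 7.6e-06) rose. They were among 3 higher (23.1%, where 22.8% of all genes were) and 2 lower (15.4%, where 25.5% were).

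The 33 upstream kinases and adaptors were called in both directions at 16 h, 7 higher (21.2%, where 27.4% of all genes were) and 12 lower (36.4%, where 26.5% were), with a median of -0.11. IRAK1, a kinase of the Toll-like and interleukin receptor route, was lower (-0.54 ± 0.04, limma adjusted p = 2.95e-13), and its relative IRAK2 (0.91 ± 0.14, adjusted p = 4.69e-07) and the adaptor AZI2 (0.70 ± 0.08, adjusted p = 3.57e-10) were higher. At 5 d, 8 were higher (24.2%, where 26.3% of all genes were) and 11 lower (33.3%, where 28.9% were), and those lower included IRAK1 (-0.80 ± 0.04, adjusted p = 4.37e-18), RBCK1, a subunit of the linear ubiquitin ligase (-0.97 ± 0.06, adjusted p = 1.32e-15), and the paracaspase MALT1 (-1.23 ± 0.15, adjusted p = 4.29e-09). Against 16 h, 5 were higher (15.2%, where 22.8% of all genes were) and 9 lower (27.3%, where 25.5% were) at 5 d. RBCK1 (-0.63 ± 0.06, adjusted p = 2.26e-10), SHARPIN of the same ligase (-0.39 ± 0.06, adjusted p = 1.58e-06) and IRAK2 (-0.86 ± 0.14, adjusted p = 2.29e-06) were lower.

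Inhibitors outside the 10 genes moved in both directions. Of the 3 other ankyrin proteins tested, BCL3 had 399 and 420.1 normalized counts in 16 h spheres against 148 and 153 in adherent cells (1.44 ± 0.13, limma adjusted p = 3.34e-12), NFKBIL1 was higher (0.49 ± 0.10, adjusted p = 8.14e-05) and NFKBIB, the beta form of the cytoplasmic inhibitor, was lower (-0.48 ± 0.16, adjusted p = 0.00979). At 5 d BCL3 was higher than in adherent cells (0.74 ± 0.13, adjusted p = 7.28e-06), and NFKBIB (-1.05 ± 0.16, adjusted p = 5.33e-07) and NFKBIL1 (-0.61 ± 0.10, adjusted p = 3.11e-06) were lower. All 3 were lower at 5 d than at 16 h: NFKBIL1 at -1.10 ± 0.10 (adjusted p = 1.26e-11), BCL3 at -0.70 ± 0.13 (adjusted p = 2.13e-05) and NFKBIB at -0.57 ± 0.16 (adjusted p = 0.00292). Of 21 other negative regulators, 5 were higher (23.8%) and 3 lower (14.3%) at 16 h, where 27.4% and 26.5% of all genes were. ZC3H12A, a nuclease that degrades inflammatory mRNAs, had 431 and 462 normalized counts in 16 h spheres against 39.2 and 54.8 in adherent cells (3.24 ± 0.21, adjusted p = 2.08e-16). IRAK3, a dampener of Toll-like signaling (3.77 ± 0.26, adjusted p = 2.28e-15), and TNIP1, a partner of TNFAIP3 (1.04 ± 0.03, adjusted p = 7.45e-27), were higher too. The deubiquitinase CYLD (-1.23 ± 0.11, adjusted p = 8.38e-12), TRAFD1 (-0.58 ± 0.09, adjusted p = 5.56e-07) and NLRC5 (-0.51 ± 0.17, adjusted p = 0.0122) were lower. At 5 d, 7 were higher (33.3%, where 26.3% of all genes were) and 5 lower (23.8%, where 28.9% were). IRAK3 (3.43 ± 0.26, adjusted p = 4.33e-14) and TNIP1 (0.97 ± 0.03, adjusted p = 1.21e-25) were still high and CYLD was still lower (-1.28 ± 0.11, adjusted p = 3.78e-12). Against 16 h, 4 were higher (19%, where 22.8% of all genes were) and 6 lower (28.6%, where 25.5% were). Among them were ZC3H12A (-2.48 ± 0.21, adjusted p = 8.72e-13), TOLLIP (-0.58 ± 0.08, adjusted p = 1.54e-07) and COMMD1, which was higher (0.97 ± 0.15, adjusted p = 1.9e-06).

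**Figure D3:**
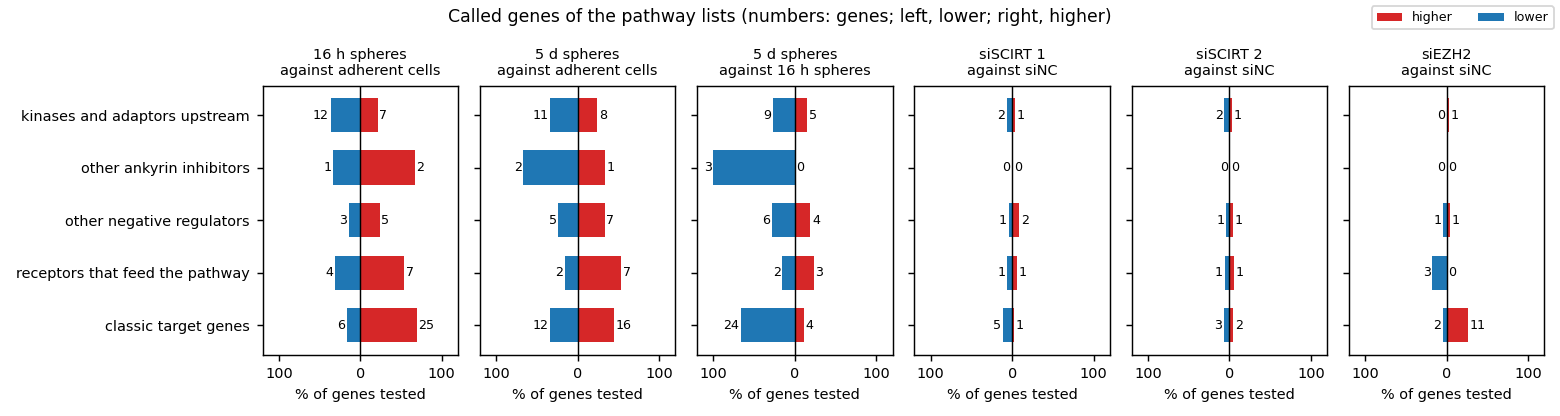
Percent of the genes tested in each of 5 pathway lists that were called lower (left, blue) or higher (right, red) in 6 comparisons, with the number of genes at the bar ends. The classic target genes are mostly higher at 16 h (25 of 36) and mostly lower at 5 d against 16 h (24 of 36), and 11 of 42 are higher with siEZH2.

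When SCIRT was silenced, 1 of the 10 genes passed the test, with 1 of the siRNAs. With siSCIRT 1, NFKB1 was the only one called by limma, as 1 lower and 0 higher, where 5.56% of 16607 genes tested were lower and 4.63% higher. With siSCIRT 2, 0 of the 10 were called by limma, where 5.05% of all genes were lower and 4.49% higher. With siSCIRT 2, 4 of the 10 had an unadjusted p under 0.05, as did 23.6% of all genes, and edgeR and DESeq2 each called 0. A limma fit with a block for the replicate number called 1 higher (RELB) and 1 lower (BIRC3) with siSCIRT 2, among 3110 genes called. Groups that did not overlap were seen for 3 of the 10 genes with each siRNA, where 28.1% of all genes had them with siSCIRT 1 and 26.5% with siSCIRT 2. Both comparisons share the same 3 siNC libraries. In the siSCIRT table the columns read as siSCIRT 1 carry no siRNA number and were assigned because those of siSCIRT 2 do.

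NFKB1 had 3049.9, 3148 and 3010.3 normalized counts with siSCIRT 1 and 3122, 3502 and 3393 with siSCIRT 2, against 3639, 3785 and 3621 with siNC. All 6 siSCIRT libraries were below all 3 controls. The log2 fold change was -0.26 ± 0.06 with siSCIRT 1 (limma adjusted p = 0.0166) and -0.14 with siSCIRT 2 (adjusted p = 0.195). Without siSCIRT 1 replicate 3 the call was lost (adjusted p = 0.0778). BIRC3 had the largest gain of the 10 genes in spheres over adherent cells. It had 9064, 7929 and 8156 normalized counts with siSCIRT 1 and 9160.4, 8063 and 8474 with siSCIRT 2, against 9762, 10395 and 9117 with siNC. The siSCIRT 1 libraries lay below every control, and 1 siSCIRT 2 library fell among them. Neither log2 fold change passed, -0.22 ± 0.07 with siSCIRT 1 (adjusted p = 0.076) or -0.19 with siSCIRT 2 (adjusted p = 0.131), although the first passed with DESeq2 (adjusted p = 0.0468) and without siSCIRT 1 replicate 1 (0.0325). Both passed in a limma fit with a block for the replicate number (adjusted p = 0.00957 and 0.0258).

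TNFAIP3 had 5784, 5791 and 5845 normalized counts with siSCIRT 1 and 5874, 5739.6 and 5779 with siSCIRT 2, against 5067, 5348 and 5515 with siNC. No siSCIRT library overlapped the controls, yet neither log2 fold change passed, 0.13 with siSCIRT 1 (limma adjusted p = 0.189) or 0.13 with siSCIRT 2 (adjusted p = 0.199). RELB had 3309, 3108 and 2906 normalized counts with siSCIRT 1 and 3380.2, 3098 and 3034 with siSCIRT 2, against 3045, 2735 and 2383 with siNC. Its groups overlapped, and the log2 fold change was 0.20 with siSCIRT 1 (adjusted p = 0.181) and 0.23 with siSCIRT 2 (adjusted p = 0.122). In a limma fit with a block for the replicate number RELB was called higher with both (adjusted p = 0.0206 and 0.00867). NFKBIA, at 16062, 14406 and 14471 normalized counts with siSCIRT 1 and 17081, 14313 and 14844 with siSCIRT 2, against 16445, 13787 and 15603 with siNC, overlapped throughout. So did NFKB2, REL, NFKBIE and NFKBIZ in both comparisons, with log2 fold changes between -0.16 and 0.10. RELA had 7127, 7020.1 and 7132 normalized counts with siSCIRT 1, 7368, 7620.2 and 7481 with siSCIRT 2, and 7222, 7192 and 6723 with siNC, so that the siSCIRT 2 libraries alone stood above the controls (0.09, adjusted p = 0.39).

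No difference between the 2 SCIRT siRNAs passed the test for any of the 10 genes, which does not show that they act alike. Between siSCIRT 1 and siSCIRT 2, limma called 0 of 16607 genes (0% of those tested), with 451 at an unadjusted p under 0.05, while edgeR called 0 and DESeq2 6. None of the 10 had an unadjusted p under 0.05, 1 of the 10 (7.34% of all genes) had groups that did not overlap, and their log2 fold changes ran from -0.12 to 0.18.

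**Figure D4:**
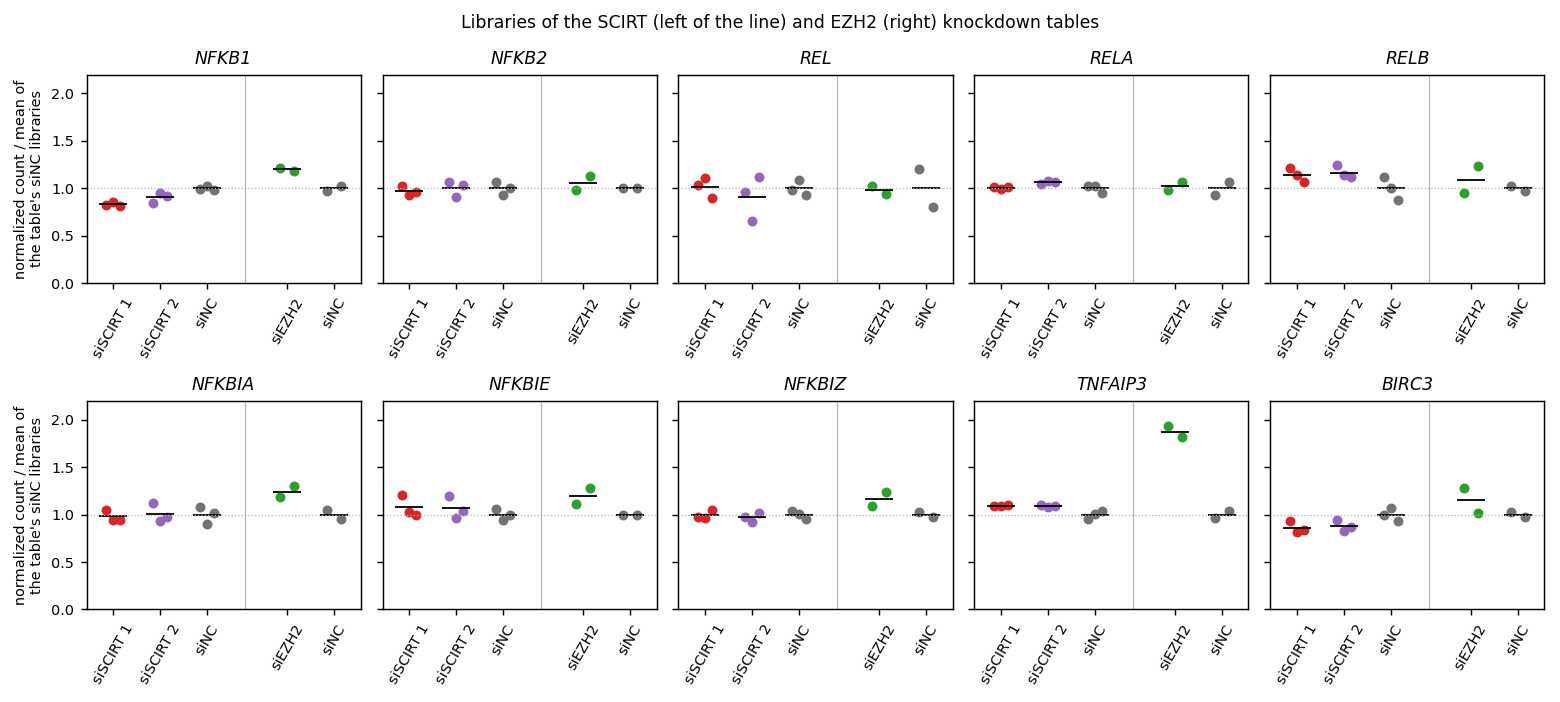
Normalized count of each gene in every siRNA library, divided by the mean of the siNC libraries of its own table (y axis); points are libraries and bars are group means, with the SCIRT knockdowns left of the line and the EZH2 knockdown right of it. TNFAIP3 with siEZH2 stands apart, at 5302 and 4981 normalized counts against 2648 and 2837 with siNC, and NFKB1 lies below its controls with siSCIRT 1 and siSCIRT 2 and above them with siEZH2.

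The pathway lists are given beside all genes, of which 4.63% were higher and 5.56% lower with siSCIRT 1 and 4.49% and 5.05% with siSCIRT 2. Of 44 classic targets, 1 was higher (2.27%) and 5 lower (11.4%) with siSCIRT 1, and 2 were higher (4.55%) and 3 lower (6.82%) with siSCIRT 2. The cytokine IL6 had 2900.2, 2473 and 2451 normalized counts with siSCIRT 1 and 2972, 2314 and 2305 with siSCIRT 2, against 4135, 3661 and 3253 with siNC (-0.50 ± 0.11, limma adjusted p = 0.00994, and -0.54 ± 0.11, adjusted p = 0.00595). PTX3, a soluble pattern recognition protein, was lower with both (-0.39 ± 0.08, adjusted p = 0.00527, and -0.33 ± 0.08, adjusted p = 0.0173), and the chemokine CXCL10 higher with both (0.60 ± 0.10, adjusted p = 0.00145, and 0.50 ± 0.10, adjusted p = 0.00621). Of 17 receptors, TNFRSF1B, the second TNF receptor, was the 1 called higher with siSCIRT 1 (0.56 ± 0.07, adjusted p = 0.000209) and with siSCIRT 2 (0.59 ± 0.07, adjusted p = 0.000211). TLR3, the sensor of double-stranded RNA, was the 1 called lower (-0.42 ± 0.13, adjusted p = 0.0491, and -0.54 ± 0.13, adjusted p = 0.014), the first of these in only 6 of 16 alternatives.

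Of 33 kinases and adaptors, 1 was higher and 2 lower with each siRNA. With siSCIRT 1 these were TBKBP1 (0.53 ± 0.09, limma adjusted p = 0.00164), TRAF3 (-0.30 ± 0.07, adjusted p = 0.00935) and IRAK1 (-0.24 ± 0.07, adjusted p = 0.0315). With siSCIRT 2 they were IRAK2 (0.20 ± 0.06, adjusted p = 0.0443), CHUK, a catalytic subunit of the kinase complex (-0.27 ± 0.08, adjusted p = 0.0371), and IRAK1 (-0.22 ± 0.07, adjusted p = 0.0454). Of 16 alternatives, IRAK1 was called in 11 with siSCIRT 1 and 7 with siSCIRT 2, IRAK2 in 7 and CHUK in 9. Of 23 other negative regulators, 2 were higher and 1 lower with siSCIRT 1, and 1 was higher and 1 lower with siSCIRT 2. NKIRAS1, which slows the destruction of the ankyrin inhibitors, was lower with both (-0.54 ± 0.09, adjusted p = 0.00126, and -0.66 ± 0.09, adjusted p = 0.000349), ZFAND6 was higher with both (0.32 ± 0.08, adjusted p = 0.0207, and 0.33 ± 0.08, adjusted p = 0.0207), and NLRC5 was higher with siSCIRT 1 (0.31 ± 0.08, adjusted p = 0.0242). None of the 4 other ankyrin proteins was called with either siRNA.

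Some measures other than the 10 genes moved with the siRNAs too. Mitochondrial genes took 5.76% to 6.11% of reads with siSCIRT 1 and 5.54% to 6.11% with siSCIRT 2, against 6.11% to 6.60% with siNC. With siEZH2 the share lay inside the 4.45% to 4.93% of its siNC libraries. The summed level of the blood cell markers was 1161 to 1331 normalized counts with siSCIRT 1 and 1127 to 1286 with siSCIRT 2, against 1014 to 1181 with siNC, and 294 to 341 with siEZH2, against 361 to 417 with siNC. Of these markers CD14 was higher with both SCIRT siRNAs, without overlap. It stood at 784 to 880.5 with siSCIRT 1 and 661 to 783 with siSCIRT 2, against 534 to 649 with siNC. CSF1R was lower with siSCIRT 1, at 364 to 442, against 466 to 511 with siNC. With siSCIRT 2 CSF1R overlapped siNC, at 405 to 494. With siEZH2 CD14 was lower, at 90.8 to 111, against 140 to 171 with siNC. The endothelial sum was 383 to 449 with siSCIRT 1 and 378 to 492 with siSCIRT 2, against 425 to 459 with siNC, and 199 to 206 with siEZH2, against 261 to 266 with siNC, most of it KDR, while CDH5 did not exceed 10.1 in any siRNA library. The fibroblast sum was 1252 to 1455 with siSCIRT 1 and 1399 to 1444 with siSCIRT 2, against 1345 to 1521 with siNC, and 862 to 1110 with siEZH2, against 737 to 912 with siNC. The part of these in the knockdown results was not tested.

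TNFAIP3 was higher when EZH2 was silenced. It had 5302 and 4981 normalized counts with siEZH2, against 2648 and 2837 with siNC. Both siEZH2 libraries were far above both controls, a log2 fold change of 0.91 ± 0.12 or 1.87-fold (limma adjusted p = 8.77e-12), and the call held in all 10 alternatives. TNFAIP3 was 1 of the 10 genes called higher and 0 were called lower, where 3.9% of 15823 genes tested were higher and 2.94% lower. The log2 fold change of EZH2 itself was -0.92 with siEZH2, -0.53 with siSCIRT 1 and -0.50 with siSCIRT 2. That of TNFAIP3 was 0.13 with siSCIRT 1 and 0.13 with siSCIRT 2. A link between EZH2 and TNFAIP3 was not tested, and the tables were not tested against each other.

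The other inhibitors did not pass the test with siEZH2, though their group means were all higher. NFKBIA had 11000.0 and 12094 normalized counts with siEZH2, against 9722 and 8903 with siNC (0.31 ± 0.12, limma adjusted p = 0.109). NFKBIE had 1757 and 2009 with siEZH2, against 1574 and 1577 with siNC (0.25, adjusted p = 0.227), and NFKBIZ had 2786 and 3163 with siEZH2, against 2627 and 2489.6 with siNC (0.22, adjusted p = 0.319). In these 3 genes the groups did not overlap. BIRC3 had 6198 and 4891 normalized counts with siEZH2, against 4966 and 4686 with siNC, so that 1 siEZH2 library fell between the controls (0.19, adjusted p = 0.396). Of the 10 genes, 5 had groups that did not overlap, where 47.9% of all genes tested had such groups.

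The subunits gave no call either. NFKB1 had 2213 and 2148 normalized counts with siEZH2, against 1775 and 1859 with siNC, and its groups did not overlap (0.26 ± 0.12, limma adjusted p = 0.196). RELB had 1655 and 2157 with siEZH2, against 1788 and 1701 with siNC (0.12, adjusted p = 0.665). NFKB2 had 4587 and 5245 with siEZH2, against 4658 and 4646 with siNC (0.08, adjusted p = 0.787). In both the siEZH2 libraries lay on either side of the controls. RELA had 5252 and 5664 with siEZH2, against 4959 and 5690.2 with siNC (0.04, adjusted p = 0.907), and REL had 137 and 126 with siEZH2, against 161 and 107 with siNC (0.00, adjusted p = 0.998), both inside the range of their controls. The direction of the RELA and REL values turned with quantile normalization.

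Of 42 classic target genes, 11 were higher with siEZH2 (26.2%, where 3.9% of all genes were) and 2 lower (4.76%, where 2.94% were), with a median log2 fold change of 0.17 against 0.01 over all genes. The growth factor CSF2 had 1090.2 and 1064 normalized counts with siEZH2, against 372 and 403 with siNC (1.47 ± 0.13, limma adjusted p = 4.48e-24). The chemokine IL8 had 15271 and 12218 with siEZH2, against 5749 and 6033 with siNC (1.21 ± 0.12, adjusted p = 7.34e-20), and PTGS2, the inducible cyclooxygenase, had 3916 and 3425 with siEZH2, against 1819 and 2022 with siNC (0.93 ± 0.12, adjusted p = 2.3e-12). Of 17 receptors, 0 were higher and 3 lower: TNFRSF1B (-0.59 ± 0.12, adjusted p = 0.000105), TLR3 (-0.86 ± 0.22, adjusted p = 0.00244, called in 5 of 10 alternatives) and IL1RAP (-0.36 ± 0.12, adjusted p = 0.0447, called in 4 of 10). The adaptor TRAF1 was the 1 kinase or adaptor of 33 called higher (0.60 ± 0.12, adjusted p = 4.23e-05), and 0 were lower. Among 23 other negative regulators NLRC5 was lower (-0.53 ± 0.13, adjusted p = 0.000947) and PDLIM2 higher (0.48 ± 0.16, adjusted p = 0.0412, called in 4 of 10), and none of the 4 other ankyrin proteins was called.

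Across all 19 libraries, centered within each table, the genes most like NFKBIA among the 12567 others tested in all tables were CXCL3 (Pearson r = 0.985), CEBPD (0.974), ZFP36 (0.970), LTBP1 (0.970) and SDC4 (0.969). Of the other 9 genes, TNFAIP3 ranked 184 (0.918), BIRC3 276 (0.900), NFKBIZ 324 (0.889) and REL 1128 (0.761). The rest were farther down the order: RELA at 2789 (0.522), NFKB2 at 5860 (0.066), RELB at 7672 (-0.197), NFKBIE at 8258 (-0.277) and NFKB1 at 10016 (-0.525). These values describe shared profiles, and 92.7% of the spread of NFKBIA came from the 6 culture libraries.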

How the data were processed

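Total RNA of MDA-MB-231 was extracted with TRI Reagent and made into libraries with the TruSeq RNA v2 kit, per the labels' protocols. That kit does not mark strand, so overlapping genes cannot be told apart. TopHat2, Partek, CASAVA 1.4 and the hg19 build are listed, without roles, in the submitters' processing notes, and the read counter is not given in the sources used here.

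The authors deposited log2 values of a variance-stabilizing transform for the culture and siSCIRT tables, and normalized counts (signal, reads divided by 1 size factor per library) for siEZH2. The log2 values were turned back by the exact inverse of the transform. Dividing by each library's step then gave whole reads for 100% of values in all 19 libraries (tolerance 0.05), which served for depth and for count tests. Between replicates the mean chi-square per gene was 2.03 to 2.08 for culture, 5.19 to 26.7 for siSCIRT and 15.1 to 15.3 for siEZH2, where counting noise alone gives 1. None was treated as a duplicate, and culture replicates lay nearest to counting noise.

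Each table was fitted alone with limma 3.58.1 (R 4.3.3) on log2(normalized count + 1), with trend and robust eBayes, keeping genes whose mean reached 10, two-sided, called at a Benjamini-Hochberg adjusted p-value under 0.05 over all genes tested. The pseudocount of 1 understates folds of low genes. There were 7 comparisons. The fit was tested on simulated data. Alternatives were a pseudocount of 8, no filter, quantile normalization, only the compared groups in the fit, a block for the replicate number, edgeR 4.0.16 (quasi-likelihood, TMM), DESeq2 1.42.0 and each library left out.

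The members and lists were chosen with earlier results of these data known. Named genes were the 10 members, up to 3 genes with the smallest adjusted p per list and comparison, the 5 genes most like NFKBIA and the silenced genes. The other negative regulators called lower at 16 h were named as well. Promoters are from RefSeq, which had no entry for NFKBIE or RELB here. Symbols are those of the tables (IL8 for CXCL8).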

Additional observations from a re-analysis of the deposited data

Results flagged for a closer look

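For 7 of the 10 genes the change from adherent cells differed between the sphere times, by the limma test of 5 d against 16 h spheres. In that test 25.5% of all genes were called lower and 22.8% higher. The log2 difference, 5 d minus 16 h, was -2.02 for TNFAIP3, -1.39 for NFKBIZ, -0.69 for NFKBIA, -0.51 for RELB, -0.47 for RELA, -0.35 for NFKBIE and -0.28 for BIRC3. Of 13 alternatives, the call held in 8 for NFKBIE, 11 for RELB and 12 for BIRC3. TNFAIP3, NFKBIA and BIRC3 were higher than adherent cells at both times, and RELA was higher at 16 h and lower at 5 d. The lower call of RELA at 5 d held in 9 of 13 alternatives.

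NFKB1 stood on opposite sides of its controls in the knockdowns, although of these values only the one with siSCIRT 1 passed the test. Every siSCIRT library was below every siNC library of its table (-0.26 with siSCIRT 1 and -0.14 with siSCIRT 2), and every siEZH2 library was above its controls (0.26). Of all genes, 28.1% had groups that did not overlap with siSCIRT 1, 26.5% with siSCIRT 2 and 47.9% with siEZH2. The difference between the NFKB1 responses was not tested.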

How the results depend on the processing

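Of the 24 values called for the 10 genes, checked in 312 combinations with an alternative, 296 kept direction and call, 16 lost the call and 0 reversed. With only the compared groups and with edgeR, 2 members were lower at 16 h (1 to 2 with 1 library left out), and with DESeq2 2 were lower at 5 d (2 to 4). Members lower at 5 d against 16 h ranged from 5 to 7. Between the siRNAs the genes called numbered 2 with no filter, 7 with the replicate block, 1 with only the compared groups, 6 with DESeq2 and 0 to 1 with 1 library left out. For siEZH2, 1082 genes were called, but 532 with the replicate block, 678 with DESeq2 and 339 to 1035 with 1 library left out.

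Libraries numbered 1 in the siSCIRT table deviated together from their group means (Pearson r = 0.54 to 0.58 between groups). For number 2 the r was 0.13 to 0.26, and for number 3 it was -0.004 to 0.22. Same-numbered libraries thus did not all deviate together, nor did each correlate best with its own number. With the replicate block, 3144 genes were called for siSCIRT 1 (against 1693) and 3110 for siSCIRT 2 (against 1584). Members were then 1 higher (RELB, adjusted p = 0.0206) and 2 lower (NFKB1, called without it too, and BIRC3, 0.00957) with siSCIRT 1, and 1 higher (RELB, 0.00867) and 1 lower (BIRC3, 0.0258) with siSCIRT 2. DESeq2 gave 2 lower with siSCIRT 1. With 1 library left out the counts were 886 to 1830 genes and 0 to 2 members lower (siSCIRT 1), and 769 to 1816 genes (siSCIRT 2).

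Directions that turned belonged to values that passed no test. With quantile normalization REL was 0.038 and RELA -0.024 with siEZH2. With 1 library left out, the range for REL at 5 d against 16 h was -0.071 to 0.29. For siSCIRT 1 the ranges were -0.085 to 0.011 (NFKB2), -0.053 to 0.098 (REL), -0.023 to 0.029 (RELA), -0.099 to 0.029 (NFKBIA) and -0.045 to 0.021 (NFKBIZ), and for siSCIRT 2 -0.043 to 0.079 (NFKB2), -0.33 to 0.054 (REL) and -0.064 to 0.067 (NFKBIA). Between the siRNAs they were -0.11 to 0.0053 (NFKB2), -0.041 to 0.34 (REL), -0.076 to 0.018 (RELB), -0.090 to 0.038 (NFKBIA), -0.071 to 0.10 (NFKBIE), -0.0031 to 0.071 (NFKBIZ), -0.0048 to 0.012 (TNFAIP3) and -0.089 to 0.018 (BIRC3). For siEZH2 they were -0.020 to 0.17 (NFKB2), -0.29 to 0.29 (REL), -0.061 to 0.14 (RELA) and -0.075 to 0.31 (RELB). The cause was not tested.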
